A study of Mus musculus with 12 samples.

Results

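Tuft cells are rare chemosensory cells of the intestinal epithelium, and 9 genes by which they are recognised were followed here through the rectum of mice with and without colitis: Pou2f3, Avil, Gnat3, Trpm5, Sh2d6, Dclk1, Alox5, Alox5ap and Il25. The genes were chosen by name as known tuft cell genes, and all 9 were found by their symbols among the 17734 genes of the expression table. The RNA came from male C57BL/6 mice, 3 in each of 4 groups, which the study methods describe as adult and kept free of specific pathogens. Normal mice had neither agent. Colitis mice drank 2.5% dextran sulfate sodium (DSS), a polymer that injures the bowel lining, for 7 days. Normal mice receiving berberine (BBR), a plant alkaloid, had BBR alone, and colitis mice receiving BBR had both. BBR was given once a day by gavage, at 100 mg/kg, for 6 days by one sample label and for 7 by the methods. The tissue was whole rectum by the methods and colorectum by the labels, so that muscle, nerve and blood cells contributed RNA beside the epithelium. A mouse is named below by its group and its number in the sample titles, and mice of different groups with the same number are different animals.

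In the bowel, tuft cells sense luminal metabolites and microbes through a cascade related to that of taste cells, in which a receptor acts through a G protein and phospholipase C to open the cation channel TRPM5. They answer by releasing IL-25, cysteinyl leukotrienes and other messengers, and in the small intestine IL-25 drives group 2 innate lymphoid cells to make IL-13, which expands tuft and goblet cells. The transcription factor POU2F3 is needed for the lineage to form. The comparisons ask how this set of genes stood in DSS colitis, with and without BBR, and in normal mice given BBR.

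The promoters of 4 members are shown because POU2F3 belongs to the POU family, whose members bind an octamer, ATGCAAAT. Dclk1 and Alox5 also had a promoter sequence and are not shown, though Alox5 varied more closely with Trpm5, Gnat3 and Sh2d6 than Avil did. The sequences are the 250 bases before the start of the gene, 5′ to 3′ on the strand of the gene, from RefSeq on GRCm38.p6, and capitals mark matches to the first 7 letters of the octamer, ATGCAAA, on either strand. They lie at chr7:143094643-143094892 on the minus strand for Trpm5, chr5:17962320-17962569 on the plus strand for Gnat3, chr6:72520037-72520286 on the minus strand for Sh2d6 and chr10:127000459-127000708 on the plus strand for Avil.
Trpm5: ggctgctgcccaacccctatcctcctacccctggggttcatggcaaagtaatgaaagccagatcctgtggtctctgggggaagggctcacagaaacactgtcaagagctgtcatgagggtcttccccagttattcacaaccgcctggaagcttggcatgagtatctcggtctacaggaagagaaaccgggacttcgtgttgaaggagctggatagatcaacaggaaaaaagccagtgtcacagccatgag
Gnat3: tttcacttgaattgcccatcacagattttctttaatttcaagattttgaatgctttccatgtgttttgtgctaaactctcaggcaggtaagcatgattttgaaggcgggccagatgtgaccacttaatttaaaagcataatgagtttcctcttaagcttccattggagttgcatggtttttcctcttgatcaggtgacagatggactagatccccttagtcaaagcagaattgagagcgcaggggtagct
Sh2d6: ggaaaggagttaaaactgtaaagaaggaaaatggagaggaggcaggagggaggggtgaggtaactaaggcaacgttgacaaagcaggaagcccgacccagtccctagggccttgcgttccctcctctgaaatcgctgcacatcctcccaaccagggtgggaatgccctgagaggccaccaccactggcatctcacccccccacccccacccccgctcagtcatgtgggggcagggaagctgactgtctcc
Avil: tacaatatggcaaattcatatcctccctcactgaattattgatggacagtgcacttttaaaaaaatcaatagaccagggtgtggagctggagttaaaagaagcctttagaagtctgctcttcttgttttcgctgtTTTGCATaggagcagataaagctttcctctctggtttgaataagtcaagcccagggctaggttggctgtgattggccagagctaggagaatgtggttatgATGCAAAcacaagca
Of the 9 members, 6 had an entry in the promoter table, with 7 windows between them, and Pou2f3, Il25 and Alox5ap had none. These windows hold the 250 bases shown and the first 50 bases of the gene. None of the 7 windows held the full octamer on either strand (ATGCAAAT or ATTTGCAT), which was found in 1.74% of the 32851 windows in the table. The shorter form, ATGCAAA or TTTGCAT, which every full octamer contains, was in 4.63% of the windows and in 1 of the 7 member windows, that of Avil. Its matches began 15 bases before the start on the plus strand and 115 bases before it on the minus strand. These are matches of letters, and binding was not measured.

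The values are FPKM, fragments scaled to the length of the transcript and the depth of the library, so that levels of different genes can be set side by side. The sources do not name this unit. It was read from the values themselves, and the like scale TPM is possible. The mice numbered 4 stood apart in all 4 groups, with column totals of 482194 to 504337 against 696286 to 765876 in the mice numbered 1 to 3, and 872 to 1086 genes at 0 against 1332 to 1926. No label says what sets them apart. Epithelial marker genes, among them Epcam, Cdh1 and Vil1, summed to between 6780 and 13158 FPKM over the 12 mice, and 7 squamous markers, which would mark skin-like anal lining, to at most 7.52. The rectal epithelium was therefore present in every mouse. Low values fell on steps from which the worth of 1 read was estimated. A value of 3 reads, taken as the floor of detection for counting error only, corresponded to 0.149 to 0.228 FPKM for Il25 and to 0.0592 to 0.0905 FPKM for Pou2f3, and to less for the longer Trpm5 and Dclk1.

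In normal mice 8 of the 9 genes had a mean under 3 FPKM. Alox5ap had the highest level, 6.22 ± 1.53 FPKM (SD, n = 3), followed by Sh2d6 at 2.46 ± 0.25, Dclk1 at 1.83 ± 0.39, Avil at 1.64 ± 0.42, Trpm5 at 1.54 ± 0.28, Alox5 at 1.18 ± 0.13 and Gnat3 at 1.02 ± 0.22. Pou2f3 was lower, at 0.413 ± 0.055, and Il25 was at 0.08 in normal mouse 1 and listed at 0 in the others. In this order the values of Alox5ap did not overlap those of Sh2d6, nor those of Gnat3 the values of Pou2f3, nor those of Pou2f3 the values of Il25, while every other gene overlapped its neighbours.

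Pou2f3, the lineage factor, was at 0.47, 0.41 and 0.36 FPKM in normal mice 1, 3 and 4 and at 0.48, 0.54 and 0.28 in normal mice 1, 3 and 4 receiving BBR. In colitis mice 1, 2 and 4 it was at 0.03, 0.42 and 0.19, and in colitis mice 2, 3 and 4 receiving BBR at 0.51, 0.52 and 0.19. Colitis mouse 2 thus had a level within the normal range, while colitis mouse 1 had the lowest level of the 12 mice, worth about 1.0 read. The log2 fold change of colitis against normal mice was −0.92 ± 0.51 (SE; limma, adjusted p = 0.298). With BBR the colitis mice stood 0.83 ± 0.51 above the colitis mice without it (adjusted p = 0.939), and the groups overlapped in both comparisons.

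Gnat3 encodes gustducin, the G protein alpha subunit of taste cells. It was at 1.01, 1.24 and 0.80 FPKM in normal mice and at 1.20, 0.89 and 1.32 in normal mice receiving BBR. In colitis mice 1, 2 and 4 it was at 0.14, 2.21 and 0.23, and in colitis mice 2, 3 and 4 receiving BBR at 1.70, 2.18 and 0.57. The 6 mice without DSS lay close together, and each of the 6 mice with DSS lay outside their range, 3 above it and 3 below. Colitis mouse 1 had about 2.4 reads of Gnat3 and colitis mouse 2 about 40.7.

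Trpm5, the cation channel that depolarises taste and tuft cells, followed the same mice. It was at 1.73, 1.67 and 1.21 FPKM in normal mice and at 2.05, 2.02 and 1.30 in normal mice receiving BBR. Colitis mice 1, 2 and 4 had 0.30, 2.37 and 0.45 FPKM, and colitis mice 2, 3 and 4 receiving BBR had 2.51, 3.25 and 0.81. Colitis mouse 2 and mice 2 and 3 of the group with both agents were again above all 6 mice without DSS, and the other 3 mice with DSS were below all 6. Against normal mice, the log2 fold change in colitis was −0.99 ± 0.65 for Trpm5 (limma, adjusted p = 0.368) and −0.96 ± 0.74 for Gnat3 (adjusted p = 0.435). With BBR the colitis mice stood 1.29 ± 0.65 higher for Trpm5 (limma, adjusted p = 0.829) and 1.30 ± 0.74 higher for Gnat3 (adjusted p = 0.902).

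Sh2d6, an SH2 domain protein found in tuft cells, was at 2.63, 2.58 and 2.18 FPKM in normal mice and at 1.70, 3.48 and 3.53 in normal mice receiving BBR. In colitis mice 1, 2 and 4 it was at 0.76, 4.76 and 0.76, and in colitis mice 2, 3 and 4 receiving BBR at 4.85, 7.11 and 1.60. The level of 7.11 was the highest of this gene in any mouse, and the split of the mice given DSS was that of Trpm5. With BBR the colitis mice stood 1.36 ± 0.68 higher on the log2 scale (limma, adjusted p = 0.827).

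Avil encodes advillin, an actin-bundling protein of the villin family that is found in the tuft cell's apical bundle and also in sensory neurons. It was at 0.70, 3.92 and 1.17 FPKM in colitis mice 1, 2 and 4 and at 2.08, 4.51 and 1.46 in colitis mice 2, 3 and 4 receiving BBR, against 1.21 to 2.05 in normal mice and 1.35 to 2.04 in normal mice receiving BBR. Dclk1, a microtubule-associated kinase of tuft cells that neurons also express, was at 0.70, 3.08 and 1.59 FPKM in colitis mice and at 1.53, 2.38 and 1.31 in colitis mice receiving BBR, against 1.54 to 2.27 in normal mice and 1.83 to 2.45 in normal mice receiving BBR. For Avil the mice high and low with DSS were those of Trpm5, except that mouse 4 of the group with both agents lay within the range without DSS. For Dclk1, colitis mouse 2 alone was above all 6 mice without DSS. The fitted differences were small for both: −0.10 ± 0.56 for Avil and −0.23 ± 0.45 for Dclk1 in colitis against normal mice, and 0.65 ± 0.56 and 0.14 ± 0.45 with BBR in colitis.

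Alox5 and Alox5ap work in 1 pathway: 5-lipoxygenase, with the membrane protein that presents arachidonic acid to it (FLAP), makes the first leukotriene precursor, in tuft cells as in neutrophils, macrophages and mast cells. Alox5 was at 1.04, 1.30 and 1.20 FPKM in normal mice and at 1.14, 1.49 and 1.15 in normal mice receiving BBR. It was at 0.53, 2.86 and 0.55 in colitis mice 1, 2 and 4 and at 2.22, 2.02 and 0.48 in colitis mice 2, 3 and 4 receiving BBR, so that it split the mice given DSS as Trpm5 did. Alox5ap behaved differently in the colitis mice. It was at 8.17, 30.54 and 6.85 FPKM in colitis mice 1, 2 and 4, at 13.24, 11.37 and 2.97 in colitis mice 2, 3 and 4 receiving BBR, at 4.67 to 7.73 in normal mice and at 4.02 to 8.28 in normal mice receiving BBR. Colitis mice 1 and 4, which were low for Trpm5, had Alox5ap levels within the range of the mice without DSS. Alox5ap was the sole member besides Il25 with a positive fitted difference in colitis, 0.96 ± 0.62 (limma, adjusted p = 0.359), and the sole one with a negative difference for BBR in colitis, −0.64 ± 0.62 (adjusted p = 1).

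Il25, the cytokine by which tuft cells alert the type 2 immune system, was near the limit of detection. In 9 of the 12 mice its value was worth less than 3 reads, and its mean passed the filter of 0.1 FPKM only through the colitis mice receiving BBR, so that its tests on that group support nothing. It was listed at 0 in colitis mice 1 and 4 and was at 0.15 in colitis mouse 2, and it was at 0.42, 0.50 and 0.05 in colitis mice 2, 3 and 4 receiving BBR. These correspond to about 5.5, 6.7 and 1.0 reads with BBR, against 2.1 reads in colitis mouse 2. In normal mice receiving BBR it was at 0.09, 0.17 and 0.22 FPKM, worth 1.2, 2.2 and 3.8 reads, against 0.08 and 2 values of 0 in normal mice. At this level a fitted log2 difference depends on the pseudocount and does not give a fold. The test for BBR in colitis had an adjusted p of 0.704 (limma) and an exact permutation p of 0.2, and the values of the groups overlapped.

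**Figure D1:**
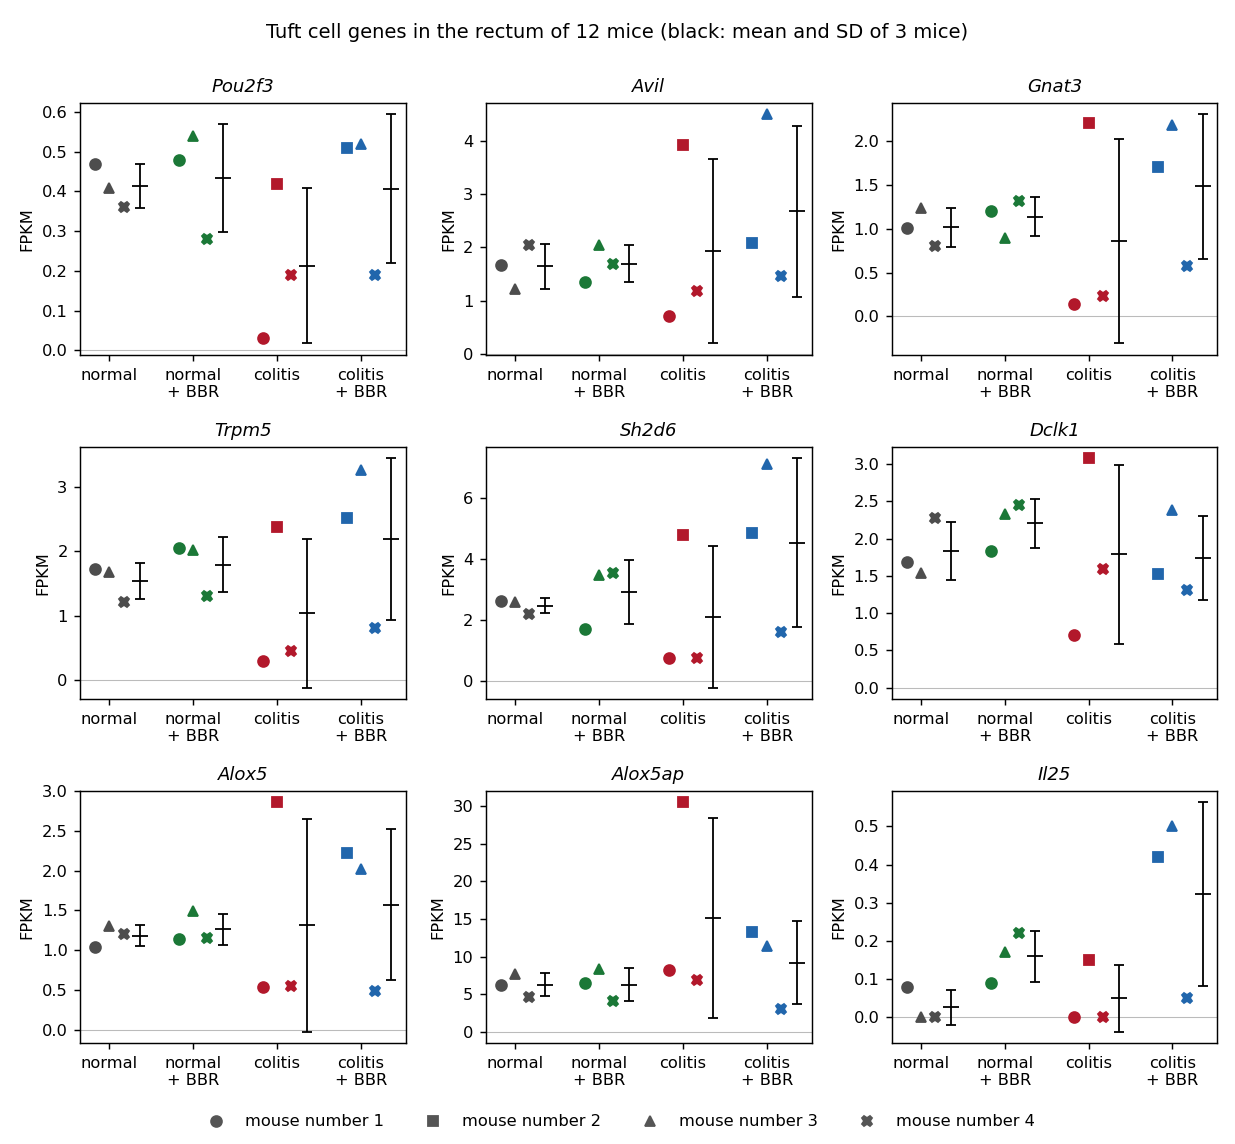
FPKM of the 9 tuft cell genes (vertical axes from the lowest to the highest value of each gene, horizontal axes the 4 groups), 1 symbol per mouse with its shape giving the mouse number, and the mean and SD of 3 mice in black. In most panels colitis mouse 2 and mice 2 and 3 of the colitis group with BBR sit high and the other 3 mice with DSS sit low, while Trpm5 in the 6 mice without DSS stays between 1.21 and 2.05.

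Across the members the same mice were high and low. Colitis mouse 1 was below all 6 mice without DSS for 7 of the 9 genes, colitis mouse 4 for 6 and mouse 4 of the colitis mice receiving BBR for 7. Colitis mouse 2 was above all 6 for 7 genes, Dclk1 among them. Mice 2 and 3 of the colitis mice receiving BBR were also above all 6 for 7 genes, with Il25 in place of Dclk1, and Il25 passed the filter only through that group. How many of all genes lay outside this range in each mouse was not counted. The levels were not rescaled between mice, and the mice numbered 4 had the lower column totals. The spread between mice was also wider with DSS. The median SD of the 9 members on the log2(FPKM + 0.1) scale was 0.278 in normal mice, 0.352 with BBR alone, 1.20 in colitis mice and 0.998 with both agents. Over all 15315 tested genes the median SD was 0.281, 0.314, 0.461 and 0.505 in the same order. Of the 9 members, 8 had their widest spread in colitis mice, against 29.8% of all tested genes, while for 45.1% of all genes the widest group was the colitis mice receiving BBR. Gnat3 had the widest spread of the members in colitis, with an SD of 1.77, against 0.287 in normal mice. In whole tissue, fewer tuft cells and less RNA per tuft cell cannot be told apart.

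**Figure D2:**
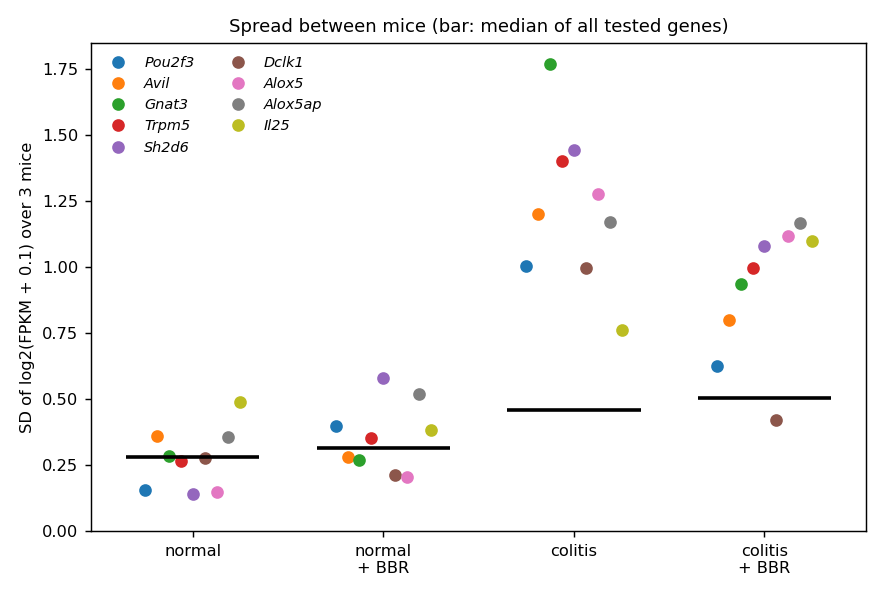
SD of log2(FPKM + 0.1) over the 3 mice of each group (vertical axis) for the 9 tuft cell genes (coloured points) in the 4 groups (horizontal axis), with a black bar for the median of all 15315 tested genes. The members scatter around the bar at 0.281 in normal mice and all lie above the bar at 0.461 in colitis mice.

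Against this spread no member passed the adjusted limit in any comparison. P-values below come from limma fitted over all 12 mice, adjusted by the Benjamini-Hochberg method over the 15315 genes whose mean was 0.1 FPKM or more, and they measure the spread between 3 mice of each group. In colitis against normal mice 0 of 9 members were called at an adjusted p under 0.05 (1.08% of all genes were), 0 of 9 had an unadjusted P of at most 0.05 (21.4% of all genes did) and 0 of 9 had groups that did not overlap (29.3% of all genes did). The fitted difference was negative for 7 members and positive for 2, with a median of −0.26 beside −0.32 over all genes. With the replicate number as a block 8 were lower and 1 higher, with a median of −0.61. That block also changed the count at the unadjusted P, as given further below. With each mouse centred on its median, 5 members were higher and 4 lower: Avil, Dclk1 and Alox5 turned positive while Pou2f3, Gnat3, Trpm5 and Sh2d6 stayed negative. The exact permutation test of 3 mice against 3, two-sided, gave p from 0.2 to 1 for the 9 genes, where 0.1 is the smallest it can give. In the 8 mice numbered 1 to 3, the differences were −0.86 for Trpm5, −0.71 for Gnat3, −1.05 for Pou2f3 and 1.18 for Alox5ap, and 0 of 9 had an unadjusted P of at most 0.05 (33.8% of all genes did).

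These values turned on colitis mouse 2. Without it 8 of the 9 members, all but Alox5ap, were lower in colitis, with a median of −0.995 on the log2 scale, and 4 of them had an unadjusted P of at most 0.05 in the limma fit (14.7% of all genes did): Gnat3 at −1.97 (adjusted p = 0.127), Trpm5 at −1.79 (adjusted p = 0.164), Sh2d6 at −1.57 (adjusted p = 0.232) and Pou2f3 at −1.40 (adjusted p = 0.240). Without colitis mouse 1 instead, the median was 0.12 and no member had an unadjusted P of at most 0.05 (14.9% of all genes did).

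Colitis mice receiving BBR were compared with colitis mice to see how the genes stood under treatment. The fitted difference was positive for 8 of 9 members, with a median of 0.83 beside −0.09 over all genes, and Alox5ap was the exception, under both scalings between mice too. None of the 9 had an adjusted p under 0.05 (0% of all genes had), 1 of 9, Il25, had an unadjusted P of at most 0.05 with a higher value, being tested only through that group (1.19% of all genes did, and 6.39% in either direction), and 0 of 9 had groups that did not overlap (7.08% of all genes did). The exact permutation p lay between 0.2 and 1. The 95% intervals reached from −0.12 to 2.71 for Trpm5, from −0.30 to 2.91 for Gnat3 and from −0.12 to 2.84 for Sh2d6, so that differences from near 0 to several fold were within the spread. In the mice numbered 1 to 3 alone, which leave 2 per group, the differences were 1.57 for Trpm5, 1.44 for Gnat3 and 1.55 for Sh2d6, and 1 of 9 members, Il25, had an unadjusted P of at most 0.05 (7.44% of all genes did).

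Single mice moved this comparison too. Without colitis mouse 2, 6 members had an unadjusted P of at most 0.05 (5.92% of all genes did), all higher with BBR. They were Gnat3, Trpm5, Sh2d6, Avil, Pou2f3 and Il25, of which Il25 passed the filter only through the colitis mice receiving BBR and supports nothing. Gnat3 had a difference of 2.32 (limma, adjusted p = 0.445) and Trpm5 one of 2.09 (adjusted p = 0.482). Without mouse 4 of the colitis mice receiving BBR, 5 members had an unadjusted P of at most 0.05 (10.9% of all genes did). Il25, tested only through that group, was again among them, and the difference of Trpm5 was 1.86 (limma, adjusted p = 0.392). Without colitis mouse 1 or 4, or mouse 2 or 3 of the colitis mice receiving BBR, 0 members were past that P (3.24% to 10.8% of all genes). The median difference without colitis mouse 1 was 0.30.

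Among mice given BBR, those with colitis and those without were compared in the same fit. The median difference of the members was 0.20 beside −0.40 over all genes, with 7 positive and 2 negative. With the replicate number as block 2 were positive and 7 negative, with a median of −0.40, and with centring or quantile normalization all 9 were positive, with medians of 0.65 and 0.74. None of the 9 members had an adjusted p under 0.05 (0.0392% of all genes had), 0 had an unadjusted P of at most 0.05 (19.7% of all genes did) and 0 had groups that did not overlap (20.2% did). The test of whether the difference made by DSS itself differed with BBR, the interaction, gave 1.09 ± 0.92 for Trpm5, 1.15 ± 1.04 for Gnat3 and 1.20 ± 0.96 for Sh2d6, with an adjusted p of 0.9998 for each in limma. Of the 9 members 0 were called at an adjusted p under 0.05 (0% of all genes were) and 0 at an unadjusted P of at most 0.05 (2.42% were). Without colitis mouse 2, 3 members, Gnat3, Sh2d6 and Trpm5, had an unadjusted P of at most 0.05 for the interaction (2.45% of all genes did). Without colitis mouse 1 the interaction was 0.58 for Trpm5, 0.53 for Gnat3 and 0.78 for Sh2d6. The median of the members was then 0.126, against 0.595 in the reported fit.

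In normal mice the median difference with BBR was 0.15 beside −0.02 over all genes. None of the 9 had an adjusted p under 0.05 (0% of all genes had) or an unadjusted P of at most 0.05 (1.36% of all genes did). In 1 of 9 the groups did not overlap (9.62% of all genes did): this was Il25, with an exact permutation p of 0.1, and 5 of its 6 values were worth less than 3 reads. For the other 8 members the differences lay between −0.02 for Alox5ap and 0.26 for Dclk1, with a 95% interval for Dclk1 from −0.72 to 1.24. Between mice of the same number, Trpm5, Dclk1 and Il25 were higher with BBR in all 3 pairs and no member was lower in all 3. The share of all genes with 1 direction throughout was not counted, so that nothing about the members follows from this. With the mouse number as a block none of the 9 had an unadjusted P of at most 0.05 (2.56% of all genes did).

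**Figure D3:**
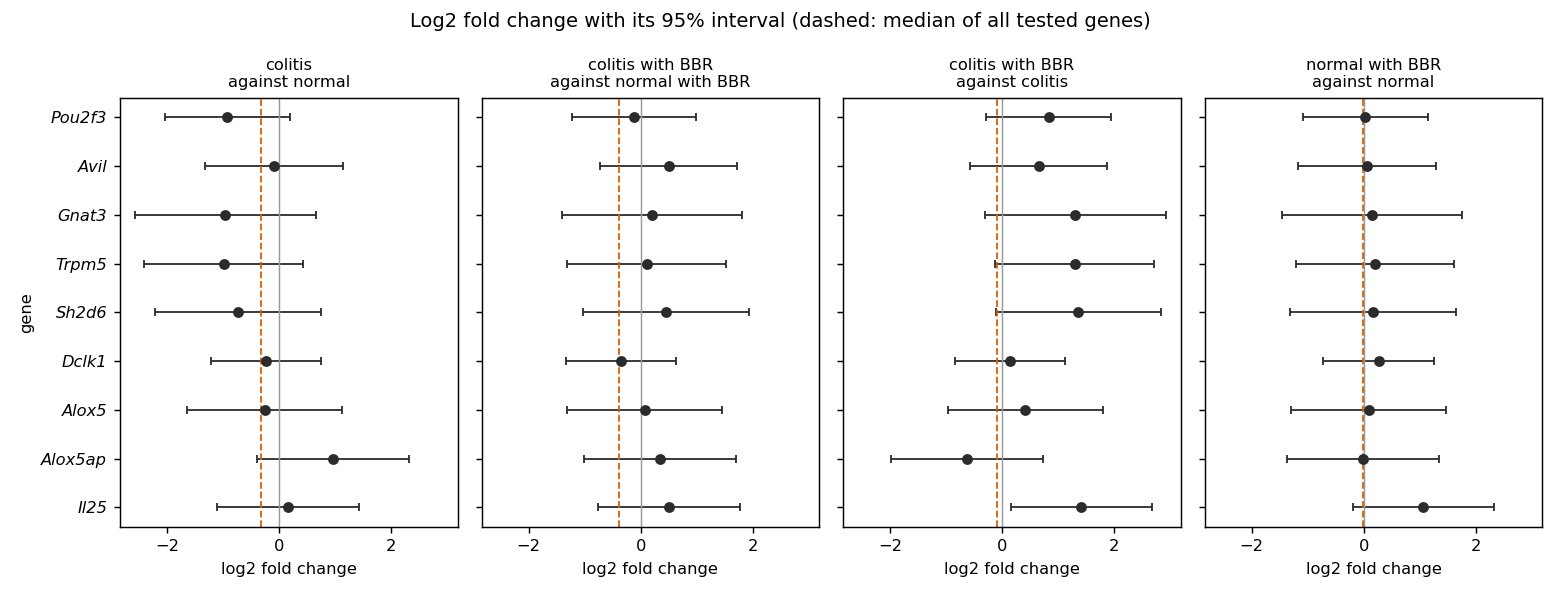
Log2 fold change of each tuft cell gene on the log2(FPKM + 0.1) scale (horizontal axis) with its 95% interval, by gene (vertical axis) and comparison (panels), with the median of all tested genes dashed. The intervals span 0 except that of Il25 for colitis mice receiving BBR against colitis mice, and the points for Trpm5, Gnat3 and Sh2d6 lie at −0.99, −0.96 and −0.74 in the first panel and at 1.29, 1.30 and 1.36 in the third.

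The members moved together from mouse to mouse. Over the 12 mice the Pearson r between log2(FPKM + 0.1) values had a median of 0.736 over the 36 pairs of members and ranged from 0.293 to 0.956. The 28 pairs without Alox5ap had a median of 0.775, and the 8 pairs with Alox5ap one of 0.429. Around the mean of each group, the median of the pairs with Alox5ap was 0.835, so that Alox5ap departed from the others in its group levels more than in its mouse to mouse variation. These correlations are descriptions, since the mice share groups and the mice numbered 4 stand apart for a reason that no label gives.

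Genes outside the set followed the members as closely. Among the 13132 genes whose mean was 0.5 FPKM or more, the 3 whose log2 values had the highest r with Trpm5 over the 12 mice were Rgs13, a regulator of G protein signalling found in tuft cells, with 0.983, Sh2d7, an SH2 domain protein, with 0.976, and Folr1, a folate receptor, with 0.968. Sh2d7 (0.983), Clca1 (0.960) and Rgs13 (0.960) led for Gnat3, and Ffar3 (0.950), Matk (0.947) and Clca1 (0.942) for Sh2d6. Rgs13 was at 0.26, 3.96 and 0.39 FPKM in colitis mice 1, 2 and 4 and at 3.27, 4.39 and 0.77 in colitis mice 2, 3 and 4 receiving BBR, against 1.25 to 3.12 in the mice without DSS. Folr1 was listed at 0 in colitis mice 1 and 4 and was at 1.93 in colitis mouse 2. By Spearman rho over the 12 mice, or by r over the 8 mice numbered 1 to 3, 2 of the 3 genes for Trpm5 and 1 to 2 of those for Gnat3 and Sh2d6 were again among the first 3.

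Alox5ap was most like Fcer1g (0.929), Ctsb (0.926) and Tyrobp (0.920), of which Fcer1g and Tyrobp are signalling adaptors of myeloid cells and Ctsb is a lysosomal protease. Fcer1g was at 61.4, 143 and 40.5 FPKM in colitis mice 1, 2 and 4, above all 6 mice without DSS, and at 36.8, 48.8 and 12.8 in colitis mice 2, 3 and 4 receiving BBR. Dclk1 was most like Bdh2 (0.892), Tuba1a (0.889), a tubulin abundant in neurons, and Zfp90 (0.888). Alox5 was most like Trim38 (0.940), Pik3cg (0.920), a leukocyte lipid kinase, and Crisp3 (0.914), and Avil like Zfp90 (0.907), Matk (0.893) and Eepd1 (0.869). None of the 3 genes named for Alox5 or for Avil was among the first 3 by the other measures.

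**Figure D4:**
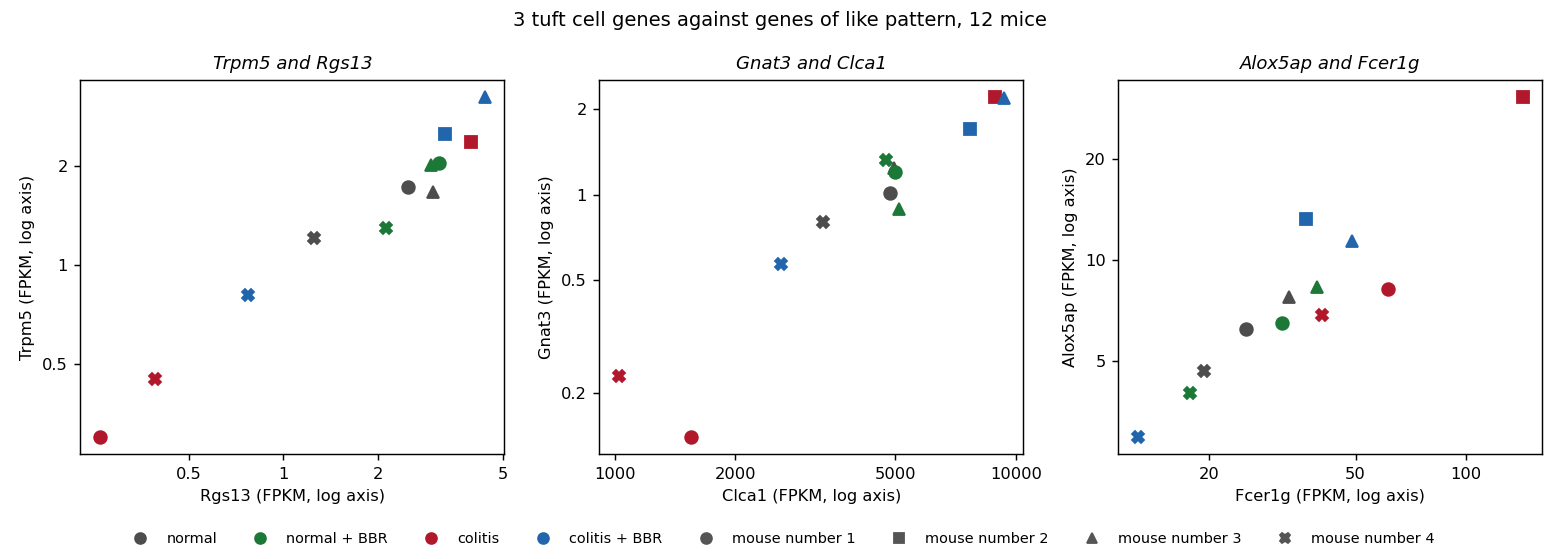
FPKM of Trpm5 against Rgs13, of Gnat3 against Clca1 and of Alox5ap against Fcer1g in the 12 mice (both axes of each panel logarithmic), coloured by group with the mouse number as the shape. Trpm5 and Gnat3 lie along a line on which colitis mouse 1 is lowest for the tuft cell gene, while colitis mouse 2 stands alone at 30.5 for Alox5ap and 143 for Fcer1g.

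Marker genes of other cells differed between these mice too. Clca1, a secreted goblet cell protein, was at 1553, 8866 and 1023 FPKM in colitis mice 1, 2 and 4 and at 7695, 9342 and 2594 in colitis mice 2, 3 and 4 receiving BBR, against 3305 to 5119 in the mice without DSS. The 7 goblet cell markers summed to 74595 FPKM in colitis mouse 2 and to 64615 and 83177 in mice 2 and 3 of the colitis mice receiving BBR, the 3 highest sums. They summed to 17467 and 9937 in colitis mice 1 and 4 and to 17285 in mouse 4 of the colitis mice receiving BBR. In the 6 mice without DSS the sum lay between 15031 and 34467, with the lowest values in the mice numbered 4. These 2 mice also had the 2 lowest of the 6 values for Trpm5, Pou2f3 and Alox5ap, and normal mouse 4 had the lowest for Gnat3. Zg16 and Tff3, at 40337 and 22718 FPKM in colitis mouse 2, made up most of these sums. Of the 7 markers, 5 were highest in colitis mouse 2 among the colitis mice, whereas Agr2 was lowest in it, at 993 FPKM against 1381 and 1491, and Spdef was highest in colitis mouse 4. No goblet cell marker was listed at 0 in any mouse. The 8 epithelial markers summed to 12755 in colitis mouse 1, which exceeded every mouse but normal mouse 3. Krt8 and Krt19, at 4520 and 4366 FPKM, made up most of that sum, while Krt18, at 288, was below all 6 mice without DSS. The 9 enteroendocrine markers summed to 2653, 5833 and 749 FPKM in colitis mice 1, 2 and 4 and to 3530, 5935 and 791 in colitis mice 2, 3 and 4 receiving BBR, against 417 to 1033 without DSS, so that colitis mouse 1 was high for them and low for Trpm5. All 7 smooth muscle markers were lower in colitis at an unadjusted P of at most 0.05 (21.4% of all genes were past it), with a median log2 fold change of −2.99. Their sum was 89.7 FPKM in colitis mouse 1 and 800 and 774 in colitis mice 2 and 4, against 1971 to 3498 in normal mice, and 603, 561 and 3821 in colitis mice 2, 3 and 4 receiving BBR.

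Marker genes of blood cells, which also carry Alox5ap, differed between the mice in another way. The 12 macrophage and monocyte markers summed to 895 FPKM in colitis mouse 2, to 362 and 255 in colitis mice 1 and 4, to between 139 and 238 in colitis mice receiving BBR and to between 189 and 292 in the mice without DSS. The 12 neutrophil markers summed to 657 to 4218 in colitis mice and 536 to 2968 in colitis mice receiving BBR, against 277 to 805 without DSS, where 3 to 6 of them were listed at 0 in each mouse. Ly6g made up most of each sum, at 259 to 793 FPKM without DSS and at 3710 in colitis mouse 2. S100a8, a granule protein of neutrophils, was listed at 0 in all 6 mice without DSS, was at 336, 290 and 24.9 in colitis mice 1, 2 and 4, and at 118, 148 and 0.31 in colitis mice 2, 3 and 4 receiving BBR. The 8 mast cell markers summed to 11.9 to 24.1 in colitis mice and to 5.78 to 10.8 in colitis mice receiving BBR, against 5.01 to 7.70 in normal mice and 1.71 to 16.3 in normal mice receiving BBR. Mice 2 and 3 of the colitis group with BBR, whose Alox5ap was above all 6 mice without DSS, had neutrophil sums of 2099 and 2968 FPKM, also above all 6, and macrophage sums within their range. Over the 12 mice the r of the mean log2 level of the macrophage markers was 0.641 with Alox5ap, 0.338 with Alox5 and 0.012 with Trpm5, while that of the goblet cell markers was 0.672, 0.827 and 0.856. For Alox5ap it was 0.699 with the neutrophil, 0.735 with the mast cell and 0.860 with the enteroendocrine markers. That of the enteric neuron markers, such as Elavl4 and Uchl1, was 0.787 with Dclk1 and 0.260 with Trpm5. The part of any of these cells in the levels of the members was not tested.

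**Figure D5:**
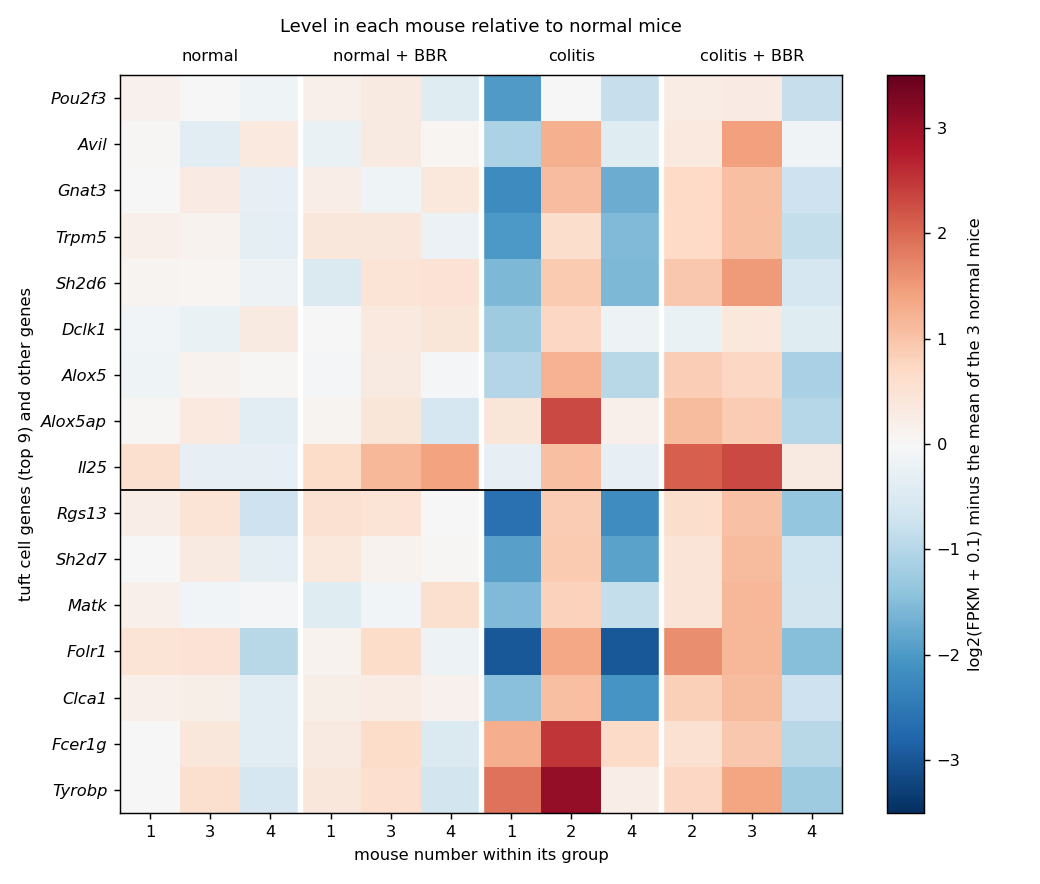
Log2(FPKM + 0.1) minus the mean of the 3 normal mice (colour, red higher and blue lower) for the 9 tuft cell genes and 7 other genes (rows) in the 12 mice (columns by group and mouse number). Rgs13, Sh2d7, Matk, Folr1 and Clca1 take the colours of Trpm5 in the mice with DSS, with Rgs13 at 0.26 FPKM in colitis mouse 1 and 4.39 in mouse 3 of the colitis group with BBR, while Fcer1g and Tyrobp are red in colitis mouse 1.

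Among 32 other tuft cell marker genes that were tested, 2 were higher and 4 lower in colitis at an unadjusted P of at most 0.05 in limma, which is 18.8% of the list beside 21.4% of all genes, with a median log2 fold change of −0.16 beside −0.32 for all genes. The list was chosen, like the others below, with earlier results of these data known. Lower were Lrmp, a membrane protein of the endoplasmic reticulum, at 10.4 FPKM against 20.0 (log2 −0.93, adjusted p = 0.0899), Ptgs1, the cyclooxygenase that tuft cells carry, at −0.99 (adjusted p = 0.199), Cd24a, a surface protein of wide epithelial expression, at −0.999 (adjusted p = 0.136), and the homeobox gene Hmx3 at −1.31 (adjusted p = 0.189). Higher were Cwh43, at 30.1 FPKM against 2.54 (log2 3.39, adjusted p = 0.0555), and Kctd12 at 0.68 (adjusted p = 0.167). Ptgs1 and Lrmp were below the normal range in all 3 colitis mice, also in colitis mouse 2, where Trpm5 and Gnat3 were high: Ptgs1 was at 2.28, 6.29 and 5.97 FPKM against 7.71 to 10.3 in normal mice, and Lrmp at 11.5, 8.92 and 10.8 against 16.9 to 24.3. With BBR in colitis 0 of the 32 were higher and 2, Cwh43 and Kctd12, lower at that P (6.25% of the list beside 6.39% of all genes). Of the 3 colitis mice, mouse 2 had the highest value for 25 of the 32 and the lowest for 3, whereas over all tested genes it was highest for 25.9% and lowest for 43.1%. This was not particular to tuft cell markers: mouse 2 was also highest for 12 of 12 macrophage, 10 of 12 neutrophil, 9 of 9 enteroendocrine and 7 of 8 enteric neuron markers. Ltc4s was at 1.49, 12.4 and 3.49 FPKM in colitis mice 1, 2 and 4. The 3 genes lowest in mouse 2 were Lrmp, Atp2a3, a calcium pump, at 159, 89.3 and 222, and Ccdc28b at 12.2, 5.42 and 9.18.

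Of 15 tested genes of leukotriene and prostaglandin D2 synthesis and sensing, which include Alox5 and Alox5ap, 5 were higher and 2 lower in colitis at an unadjusted P of at most 0.05, or 46.7% beside 21.4% of all genes, with a median of 0.16. The receptors of leukotriene B4 were among the higher: Ltb4r1 was at 1.53 FPKM against 0.307 (log2 2.13, limma, adjusted p = 0.0704) and Ltb4r2 at 2.08 against 0.433 (2.08, adjusted p = 0.0705). So were Ggt1, Ggt5 and Dpep2, which convert leukotriene C4 onward, with 2.36, 1.39 and 1.11. Lower were Ptgs1 and the dipeptidase Dpep1. With BBR in colitis 6 of the 15 were lower and 0 higher at that P, or 40.0% beside 6.39% of all genes, with a median of −0.64: Dpep2 at −1.61 (adjusted p = 0.510), Ltb4r1 at −1.60, Ggt5 at −1.45, the cysteinyl leukotriene receptors Cysltr1 at −0.96 and Cysltr2 at −0.78, and the phospholipase Pla2g4a at −0.72. Ltb4r1 was between 1.32 and 1.69 FPKM in the 3 colitis mice and did not split them as Alox5 did.

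Of 17 tested genes of the type 2 circuit around IL-25, including Il25, 6 were higher and 0 lower in colitis at an unadjusted P of at most 0.05, or 35.3% beside 21.4% of all genes, with a median of 0.52. The transcription factor Gata3 rose from 0.053 to 0.977 FPKM (log2 2.68 ± 0.53, limma, adjusted p = 0.0409). Its normal level was below the pseudocount of 0.1, so that the fitted difference does not give a fold. It was 0.87 with a pseudocount of 1 and 3.85 with 0.01. Il4ra, a receptor chain for IL-4 and IL-13, rose from 5.08 to 24.8 (2.23 ± 0.46, limma, adjusted p = 0.0477). Neither passed the adjusted limit when normal mouse 1, 3 or 4 or colitis mouse 1 or 2 was left out, with an adjusted p between 0.101 and 0.170 for Gata3 and between 0.123 and 0.170 for Il4ra in limma. Retnlb, a goblet cell product that IL-13 induces, was at 156, 292 and 121 FPKM in the 3 colitis mice against 1.80 to 8.65 in normal mice (adjusted p = 0.0577). Il33, an alarmin, was at 6.84, 28.8 and 6.47 against 1.44 to 3.05 (adjusted p = 0.116), and its receptor Il1rl1 at 5.98, 40.7 and 1.89 against 0.69 to 2.26. Il17rb, a receptor chain for IL-25, was at 0.82, 1.08 and 0.65 against 1.28 to 1.40 in normal mice, with an adjusted p of 0.426. In contrast to the tuft cell genes, Retnlb and Il4ra were above every normal mouse in all 3 colitis mice. With BBR in colitis Gata3 was at 0.04, 0.31 and 0.08 (log2 −2.16, adjusted p = 0.454), and Il1rl1 and Il4ra had an adjusted p of 0.631 and 0.638. These were the 3 genes of the 17 that were lower at an unadjusted P of at most 0.05, and 1, Il25, was higher, which passed the filter only through these mice (23.5% of the list beside 6.39% of all genes).

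The transcription factors of secretory and tuft lineages, 14 with Pou2f3, had a median of −0.76 in colitis, with 4 lower and 0 higher at an unadjusted P of at most 0.05, or 28.6% beside 21.4% of all genes. These were Ascl2, a stem cell factor, at 0.373 FPKM against 2.40 (log2 −2.91, limma, adjusted p = 0.119), Atoh1, which commits cells to the secretory fate, at −0.95 (adjusted p = 0.110), Hes1, which opposes Atoh1, at −1.39 (adjusted p = 0.194) and Hmx3. Atoh1 was at 9.88, 20.5 and 20.6 FPKM in colitis mice against 28.6 to 34.4 in normal mice, and at 20.9, 19.5 and 33.4 in colitis mice receiving BBR. It was thus below normal in colitis mouse 2 too, where the tuft cell genes were high. With BBR in colitis none of the 14 was past that P in either direction (6.39% of all genes were).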

How the data were processed

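Rectal RNA of 12 mice was sequenced as single-end reads of 50 bases. By their methods and processing notes, the authors cleaned reads with SOAPnuke, used Bowtie2 2.2.5 for alignment to mm9 and RSEM 1.2.12 for expression. The deposited table has 1 column per mouse, whose values were taken for FPKM because of their size, since the unit is not given in the sources used here. The labels name an Illumina kit and the methods another sequencer, the BGISEQ. All 12 columns were mapped to mice by the sample titles, which give groups and numbers.

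The transform was log2(FPKM + 0.1), for the 15315 genes whose mean was 0.1 FPKM or more. It understates fold changes of low genes. The model in limma 3.58.1 (R 4.3.3) had a mean for each of the 4 groups and an empirical Bayes spread that could follow the expression level, and Benjamini-Hochberg adjustment covered all of these genes, with a limit of 0.05. The share past the limit of the study methods, a P of at most 0.05 without adjustment, stands beside. Exact permutation tests were two-sided. The script was tested on simulated data. Reads were estimated from steps of low values, with the longest coding transcript of GENCODE, whose genome build is not mm9. Promoter windows were searched on GRCm38.p6, and no coordinates of the files were used. Python 3.11.15, NumPy 2.4.6, pandas 2.3.3 and SciPy 1.17.1 did the rest. Alternatives were pseudocounts of 1 and 0.01, filters at a mean of 1 and at none, centring and quantile normalization, a fit of only the groups compared, a spread without the trend, the replicate number as a block, a block for the mice numbered 4, a fit without these 4 mice and leaving out each mouse.

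The members and lists were chosen with earlier results of these data known. Named were the 9 members, list genes past the unadjusted limit or with the highest means as far as they bear on a member, and for each member whose mean was 0.5 FPKM or more the 3 genes of highest Pearson r. Other tuft cell markers named for their pattern were chosen after their values were seen. In normal mice with and without BBR, deviations from the group mean had r of 0.29, 0.109 and 0.657 for the 3 pairs of the same number over the tested genes. For different numbers of these groups r was −0.532 to 0.456, and the mice numbered 1 and 3 correlated more across numbers than within them. Only the mice numbered 4 exceeded every pair of different numbers, so that the numbers are not shown to be pairs. The reported fit has no block, and the fit with one stands beside it for BBR in normal mice. The other comparisons share 2 numbers, which were not taken as pairs either.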

Additional observations from a re-analysis of the deposited data

How the results depend on the processing

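The table holds no read counts, 3 mice stood in each group, and 9 of 12 values of Il25 were worth less than 3 reads, which limits all of these comparisons. No member passed the adjusted limit under any alternative: the lowest adjusted p in limma was 0.136 over 474 values with other settings and 0.127 over 324 values with a mouse left out, and 448 and 287 of these values kept their direction. Gata3 and Il4ra stayed higher in colitis under every alternative that held them. Their adjusted p in limma was above 0.05 with a pseudocount of 0.01, at 0.0657 and 0.0571, and that of Il4ra also with a filter at a mean of 1 (0.0560), no filter (0.0508), no trend (0.0546) and the mice numbered 1 to 3 alone (0.0516). The cause of the changes below was not tested.

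The count of all genes called in colitis against normal mice, 165, was 1412 with a block for the mice numbered 4, 930 in the mice numbered 1 to 3 alone, 509 in a fit of only the groups compared, 258 after quantile normalization, 91 with a pseudocount of 0.01, 71 with a filter at a mean of 1, and 11 to 211 with a mouse left out. For BBR in colitis the count of 0 became 4 with a pseudocount of 1, 3 without a trend, 2 with a block for the mice numbered 4 or a pseudocount of 0.01, 1 without a filter, and 0 to 59 with a mouse left out. For DSS in mice given BBR the count of 6 became 2380 in the mice numbered 1 to 3 alone, 268 with a block for the mice numbered 4, 12 without a trend, 3 after centring, 0 in a fit of only the groups compared, and 0 to 2256 with a mouse left out. The count of members at an unadjusted P of at most 0.05 was 0 in colitis against normal mice and 0 to 4 with a mouse left out, where 14.0% to 31.4% of all genes were past it. For BBR in colitis it was 1, became 2 with a block for the mice numbered 4 (9.89% of all genes), 0 in a fit of only the groups compared (3.52%) or with a filter at a mean of 1, which drops Il25 (6.02%), and 0 to 6 with a mouse left out (3.24% to 10.9%). It was 0 to 3 with a mouse left out for the interaction (1.46% to 5.78%), and 1 with a pseudocount of 0.01 for BBR in normal mice (1.18%). Il25, which passed the filter only through the colitis mice receiving BBR, is in the counts of 1, 2 and 6 for BBR in colitis.

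With a block for the replicate number, 734 genes were called in colitis against normal mice and 1 for BBR in colitis, and 4 members (Trpm5, Gnat3, Pou2f3 and Alox5ap) and 2 members (Il25 and Alox5ap) were at an unadjusted P of at most 0.05, beside 26.2% and 11% of all genes. The block turned Alox5 to −0.53, Alox5ap to −0.15, Gnat3 to −0.46, Sh2d6 to −0.15 and Trpm5 to −0.40 in colitis mice receiving BBR against normal mice receiving BBR, Dclk1 to −0.077 for BBR in colitis and Il25 to −0.075 in colitis against normal mice. It changed no adjusted call of a member, and no call of any gene for BBR in normal mice.

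In colitis against normal mice, centring turned Alox5 to 0.078, Avil to 0.24 and Dclk1 to 0.10, quantile normalization turned them to 0.30, 0.43 and 0.28, the mice numbered 1 to 3 alone turned Alox5 to 0.11 and Avil to 0.24, and a pseudocount of 1 turned Avil to 0.004. In colitis mice receiving BBR against normal mice receiving BBR, centring turned Dclk1 to 0.096 and Pou2f3 to 0.33, quantile normalization to 0.18 and 0.41, and the mice numbered 1 to 3 turned Pou2f3 to 0.013. For BBR in normal mice, Alox5ap became 0.017 with centring or quantile normalization and 0.078 in the mice numbered 1 to 3, where Gnat3 became −0.10 and Sh2d6 −0.092.

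With a mouse left out, some differences changed sign. In colitis against normal mice the ranges were Alox5 −0.99 to 0.12, Avil −0.76 to 0.40, Dclk1 −0.71 to 0.28 and Il25 −0.28 to 0.44. For BBR in colitis the ranges were Alox5ap −1.03 to 0.036 and Dclk1 −0.38 to 0.62. For colitis among mice given BBR the ranges were Alox5 −0.28 to 0.71, Alox5ap −0.042 to 1.02, Gnat3 −0.15 to 0.73, Pou2f3 −0.35 to 0.24 and Trpm5 −0.27 to 0.67. For BBR in normal mice the ranges were Alox5 −0.035 to 0.15, Alox5ap −0.25 to 0.27, Avil −0.14 to 0.22, Pou2f3 −0.12 to 0.25 and Sh2d6 −0.009 to 0.50. For the interaction the ranges were Alox5 −0.051 to 1.06, Alox5ap −1.02 to 0.055, Dclk1 −0.64 to 0.36 and Il25 −0.022 to 0.98.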

Other observations

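Lists near single members gave these values. Of the 9 tested taste receptor and taste signalling genes, 2 were lower and 0 higher in colitis at an unadjusted P of at most 0.05 in limma, which is 22.2% beside 21.4% of all genes, with a median log2 fold change of −0.51: Itpr2, an IP3 receptor, at 1.02 FPKM against 2.35 (−1.11, adjusted p = 0.131), and Tas1r3, a subunit of sweet and umami receptors, at 0.247 against 0.553 (−0.90, adjusted p = 0.230). Itpr2 was at 1.13, 1.00 and 0.93 FPKM in colitis mice 1, 2 and 4 and was thus low in colitis mouse 2, where Trpm5 was at 2.37. With BBR in colitis 1 of the 9 was higher at that P, Ffar3, a receptor of short-chain fatty acids, at 1.03 FPKM against 0.377 (1.48, adjusted p = 0.731), which is 11.1% beside 6.39% of all genes. Among mice given BBR 1 gene, Ffar2, was higher with colitis at that P, which is 11.1% beside 19.7% of all genes.

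Of the 12 villin family and brush border genes, Avil among them, 1 was lower in colitis at that P, which is 8.33% beside 21.4% of all genes: the actin-severing protein gelsolin, Gsn, at 140 FPKM against 326 (log2 −1.20, limma, adjusted p = 0.0677). Gsn was at 138, 146 and 136 FPKM in the 3 colitis mice against 268 to 379 in normal mice. Vil1, the villin of enterocytes, was at 387, 284 and 280 FPKM in colitis mice 1, 2 and 4 against 283 to 379 in normal mice. Of the 3 tested doublecortin-like kinases, Dclk3 was lower in colitis at that P, at 0.180 FPKM against 0.507 (−1.16, adjusted p = 0.188), while Dclk1 and Dclk2 were not past that P.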
